A study of Ovis aries with 20 samples.

Results

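Cathelicidins are antimicrobial peptides that neutrophils make as precursors in the bone marrow, store in their granules and release at sites of infection. In sheep and other ruminants the family has several genes, with transcripts most abundant in the developing neutrophils of the marrow. The 3 cathelicidin genes described here are CATHL3, CATHL1B and BAC5, measured in the hearts of newborn lambs. They were chosen by the SD of their levels over the 20 arrays, as the most variable of the genes that could be named, so their spread is a description and not a test. They are 3 of 845 named genes, and each is described by 1 of the array's 15008 probes. Total RNA of 2 heart regions of singleton newborn sheep, left ventricle (LV) and interventricular septum, was hybridised to 20 one-colour Agilent arrays. Each region had 5 arrays of control and 5 of cortisol lambs, which gives 4 groups. Cortisol lambs came from ewes infused with cortisol at 1 mg/kg/day from about gestation day 115 until birth, and control lambs from ewes infused with vehicle over the same span. All lambs were killed between 10 and 480 min after birth, and the time of each lamb is not given in the sources used here. The sample titles carry the word telemetry for every group. LV and septum arrays of the same treatment and number were taken as 1 lamb, as their profiles were each most alike in 10 of 10 lambs. The profiles covered 9901 probes, left after the named genes of the blood cell lists were dropped. Only 9.04% of the array's probes could be named, so blood genes may remain among the unnamed probes.

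Among the 4 slides, slide 1 was all septum (6 arrays) and slide 3 all LV (6 arrays), both with 3 of each treatment. Slide 2 mixed the regions, and the LV array of cortisol 4 was alone on slide 4. Between 57.9% and 72.1% of spots per array were well above background, and the number of arrays limits the precision. The heart muscle markers CRYAB, MB and TPM1 were well above background on all 20 arrays, with lamb means of 6.74 to 9.03 on the log2 scale used throughout. On that scale a level is log2 of the processed spot intensity minus the array's 75th percentile, so 0 is the 75th percentile itself. The RNA is from whole tissue, in which fewer cells of a type and less RNA per cell cannot be told apart.

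The probes are 60 bases long, and the 30-base stretch of each that ends in the hexamer AATAAA, the common polyadenylation signal, is shown because it marks where in the transcript each gene was read and how far the genes differ there. The stretches are printed as the files give them, 5′ to 3′, with the hexamer in capitals.
CATHL3: tgcctagacttctggacggtgaaaAATAAA
CATHL1B: ggcctcaagctactggatctgaaaAATAAA
BAC5: tttggcctgagtcagcatccaaaaAATAAA
SC5: ggtgaagacttctggactctgagaAATAAA
SC5, a cathelin-related precursor, is another cathelicidin on the array and was not used in the choice of the 3 genes. The hexamer was present in 5.63% of all probes as printed and in 9.14% on either strand. No pair of the 4 genes' probes had more than 36 identical bases in the best ungapped alignment, and their longest shared run was 12 bases. None of the other 15002 probes shared a run of 18 bases with them, and 1 shared a run of 15. CATHL1B and BAC5 each had a second probe, offset by 1 base. The paired probes differed by an SD of 0.18 (log2, 16 arrays well above background) for CATHL1B and 0.17 (17 arrays) for BAC5, a measure of technical error within an array. In the RefSeq gene table of the sheep assembly ARS-UI_Ramb_v3.0 the 4 genes lie on 1 chromosome in the order CATHL1B, CATHL3, BAC5, SC5 with 3 other entries between them. The build behind the array design is not given in the sources used here, so no coordinates are printed. The table's entry for CATHL1B carries the names of the 1A and 1B forms, and these near-identical copies were not told apart.

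All 3 genes ran from background to well above the 75th percentile of the arrays' signals, and the same lambs were high and low for each. CATHL3, which encodes the precursor of a proline-rich peptide, had LV levels of -6.12, 2.05, -2.44, -4.62 and -3.80 in control lambs 1 to 5. In LV of cortisol lambs 1 to 5 it was at -5.90, -2.64, 0.18, -6.80 and -2.52. The septum levels of CATHL3 were -6.27, 2.08, -2.33, -4.92 and -3.73 in control lambs. They were -5.07, -3.40, 1.21, -6.96 and -1.93 in cortisol lambs. Control 2 and cortisol 3 were the only lambs with a level above 0, in both regions. CATHL3 was well above background on 14 of 20 arrays and was not in either region of control 1, cortisol 1 and cortisol 4.

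CATHL1B, which encodes the precursor of a short cyclic peptide, was at -6.10, 3.04, -1.49, -3.67 and -2.37 in LV of control lambs 1 to 5. Its LV levels in cortisol lambs were -3.83, -2.73, 1.08, -7.13 and -2.08. In septum the control lambs were at -4.51, 2.43, -1.82, -3.50 and -3.01. The cortisol lambs were at -4.26, -2.57, 1.94, -5.86 and -1.23 there. The 2 highest and the lowest lambs were again control 2, cortisol 3 and cortisol 4. CATHL1B was well above background on 16 of 20 arrays, 7 of LV and 9 of septum.

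BAC5, the precursor of another proline-rich peptide, had LV levels of -4.39, 2.82, -1.34, -3.61 and -2.21 in control lambs 1 to 5. Cortisol lambs had LV levels of -3.06, -1.93, 1.50, -6.14 and -2.12. Septum levels were -4.59, 2.52, -1.50, -3.83 and -2.84 in control lambs. They were -3.38, -2.51, 2.02, -6.39 and -1.34 in cortisol lambs. BAC5 repeated the pattern of the other 2 genes, with control 2 and cortisol 3 above 0 and cortisol 4 lowest in both regions. BAC5 was well above background on 17 of 20 arrays. In LV, control 1 and cortisol 4 were not well above background for any of the 3 genes. Cortisol 4 had the higher processed intensity of these lambs for each gene, for BAC5 5.70 against 4.91. Its lower level in LV follows from its array's 75th percentile, 402 against 103 intensity units.

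**Figure D1:**
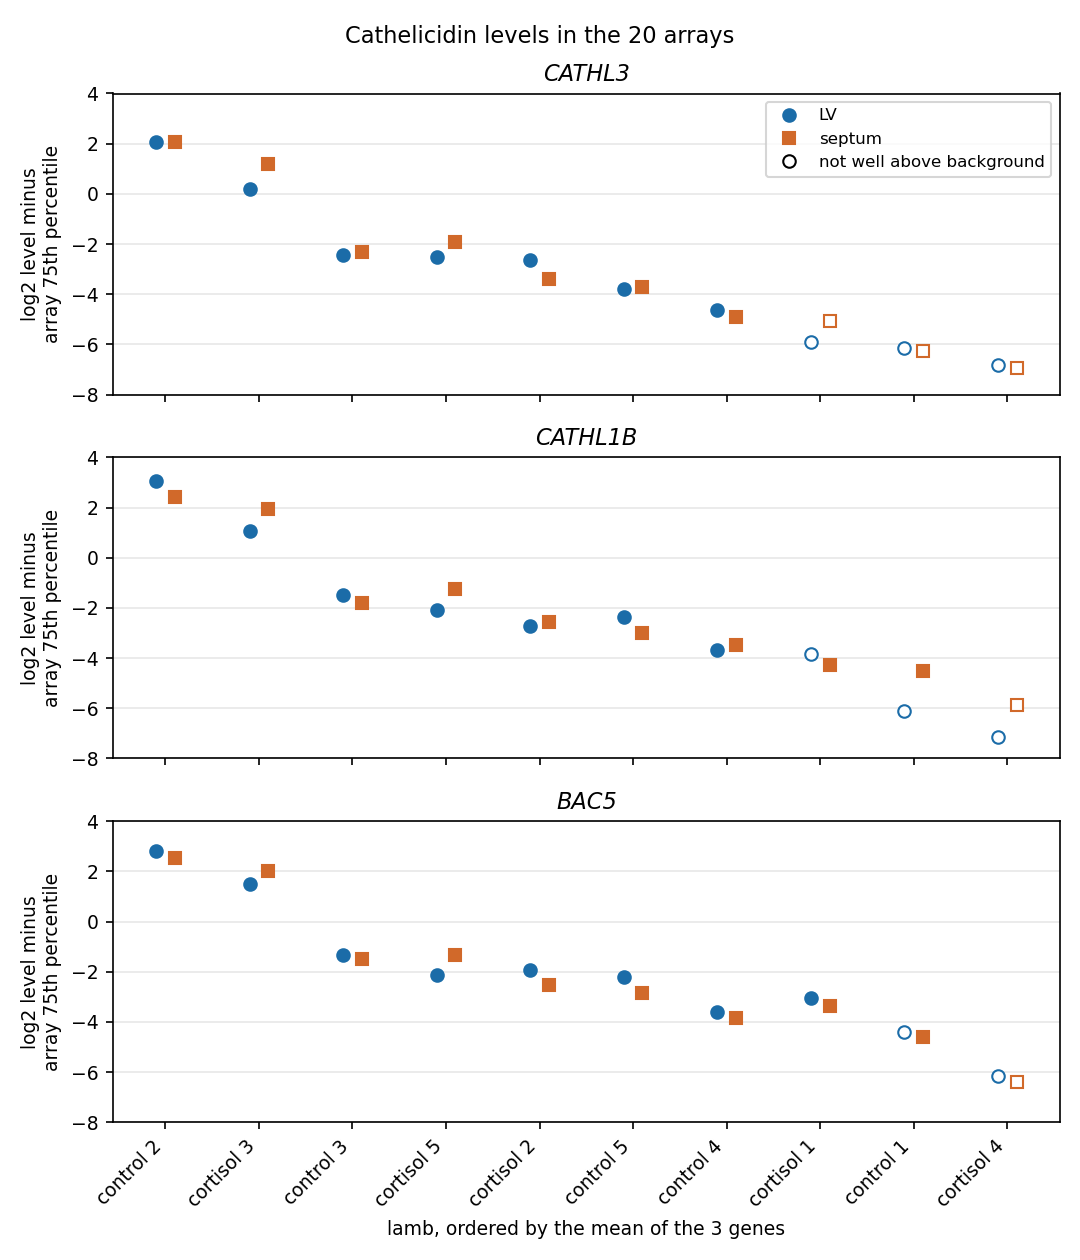
Levels of CATHL3, CATHL1B and BAC5 (y axis, log2 intensity minus the array's 75th percentile) in the LV (circles) and septum (squares) array of each of the 10 lambs, ordered on the x axis by the mean of the 3 genes; open symbols were not well above background. Control 2 and cortisol 3 lie above 0 in every panel, and cortisol 4, not well above background on either array, is lowest.

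The highest array exceeded the lowest by 8.85 (LV) and 9.03 (septum) log2 units for CATHL3, by 10.17 and 8.29 for CATHL1B, and by 8.96 and 8.91 for BAC5. The lowest array, that of cortisol 4, was not well above background for any of the 3 genes, so each of these ranges is given as a bound. The bound sets the highest array against the higher of the dim spot's own value and the lowest signal of any probe well above background on that array. It came to at least 134-fold in LV and at least 120-fold in septum for CATHL3. For CATHL1B it was at least 265-fold and 153-fold, and for BAC5 at least 227-fold and 163-fold. Among arrays well above background the range was 86.4-fold to 139-fold. The SD over the 20 arrays was 2.82 for CATHL3, 2.79 for CATHL1B and 2.63 for BAC5, against a median SD of 0.43 over 9929 probes. Ranked by the more variable probe of each, the 3 genes were the first 3 of 516 named genes (2.84 for CATHL1B, 2.82 for CATHL3, 2.72 for BAC5). ISG15, an interferon-induced gene, at 2.69, and FABP4, a fatty acid carrier, at 2.34, were just outside.

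The order of the lambs by the mean of the 3 genes over both regions was control 2 (2.49), cortisol 3 (1.32), control 3 (-1.82), cortisol 5 (-1.87), cortisol 2 (-2.63), control 5 (-2.99), control 4 (-4.02), cortisol 1 (-4.25), control 1 (-5.33) and cortisol 4 (-6.55). The widest step, 3.14, separated cortisol 3 from control 3. With the SD of the difference between a lamb's 2 regions, 0.45, as the yardstick, control 3 and cortisol 5 did not differ beyond it, nor did cortisol 2 and control 5, nor control 4 and cortisol 1. The other 6 steps were larger than that SD. Of these, the steps from cortisol 1 to control 1 (1.08) and on to cortisol 4 (1.22) rest in part on values not well above background. The order of these lambs was therefore not resolved. Control and cortisol lambs were interspersed along the order.

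The LV and septum levels of a lamb differed by much less than the lambs differed from one another. The SD of the lamb means was 2.89 for CATHL3, 2.83 for CATHL1B and 2.70 for BAC5, whereas the SD of septum minus LV was 0.54, 0.81 and 0.45 over the 10 lambs. The widest single differences, septum above LV, were 1.03 for CATHL3 in cortisol 3, 1.59 for CATHL1B in control 1, whose LV array was not well above background, and 0.78 for BAC5 in cortisol 5. Pearson's r between LV and septum was 0.984 for CATHL3, 0.967 for CATHL1B and 0.988 for BAC5, and Spearman's rho was 0.988, 0.976 and 0.964. The two-sided permutation p-values of r, adjusted over the 3 genes by the Benjamini-Hochberg method, were 1.5e-05, 1.5e-05 and 2e-05, and those of rho were 4.5e-05, 4.5e-05 and 0.0001; 1e-05 is the smallest raw value that 100000 resamples can give. Genes picked for a large spread over all arrays favour differences between lambs over noise, so these p-values are not independent of the choice. Without control 2 and cortisol 4, the 2 lambs farthest from the median in LV, r was 0.969, 0.931 and 0.976. The median r of 9929 probes was 0.722, and 0.483%, 2.42% and 0.292% of probes had a higher r than CATHL3, CATHL1B and BAC5. The choice of genes by their spread favours a high rank here too, so the rank is a description. SC5 had an r of 0.964.

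**Figure D2:**
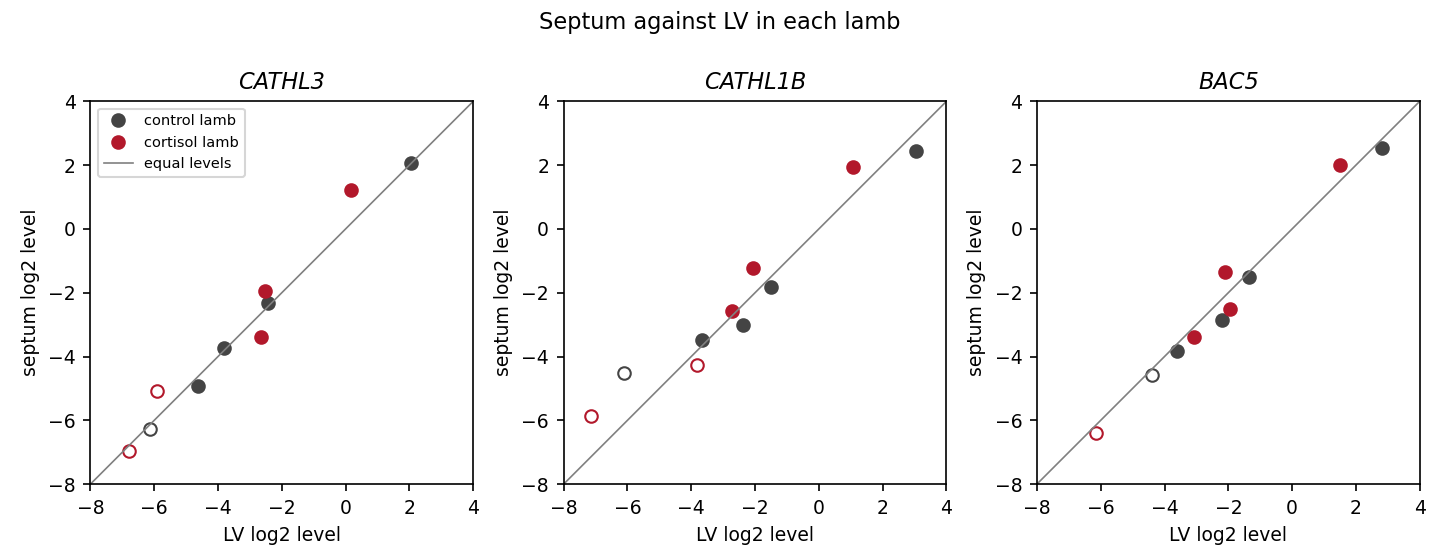
Septum level against LV level of each gene (log2 intensity minus the array's 75th percentile), 1 point per lamb, with control lambs in grey and cortisol lambs in red; open points had at least 1 array not well above background and the line marks equal levels. The points follow the line over the whole range, with r of 0.984, 0.967 and 0.988.

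The 3 genes also kept nearly the same order among lambs as one another. In LV, r over the 10 lambs was 0.971 for CATHL3 with CATHL1B, 0.968 for CATHL3 with BAC5 and 0.988 for CATHL1B with BAC5. In septum the same pairs had r of 0.994, 0.991 and 0.991. Spearman's rho was 0.952 to 1.00 over the 6 relations. The adjusted two-sided permutation p-values, over the 6 relations, were 1.2e-05 to 5e-05 for r and 2e-05 to 0.0001 for rho, with the same reservation on the choice of genes. Leaving out the 2 lambs farthest from the median left r at 0.937 to 0.982. All 3 genes were read on the same arrays, and the LV and septum arrays were separate hybridisations.

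SC5 repeated the pattern at a lower signal. In LV it was well above background in control 2 (-0.18), cortisol 3 (-1.13) and cortisol 5 (-3.69). In septum it was so in control 2 (-0.61), cortisol 3 (-0.36), cortisol 5 (-3.17) and control 3 (-4.73). The other 13 arrays were not well above background. The 4 lambs in which SC5 was detected are the 4 with the highest mean of the other 3 cathelicidins.

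Maternal cortisol was the treatment the study compared, and the control and cortisol lambs overlapped over nearly the whole range of each gene. In LV the mean of CATHL3 was -2.99 ± 3.12 (SD, n = 5) in control and -3.54 ± 2.82 (SD, n = 5) in cortisol lambs. CATHL1B was at -2.12 ± 3.37 and -2.94 ± 2.97, and BAC5 at -1.75 ± 2.82 and -2.35 ± 2.73. In septum the control and cortisol means were -3.03 ± 3.21 and -3.23 ± 3.11 for CATHL3, -2.08 ± 2.70 and -2.40 ± 2.99 for CATHL1B, and -2.05 ± 2.80 and -2.32 ± 3.06 for BAC5. Each difference between the groups was smaller than the spread between lambs.

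**Figure D3:**
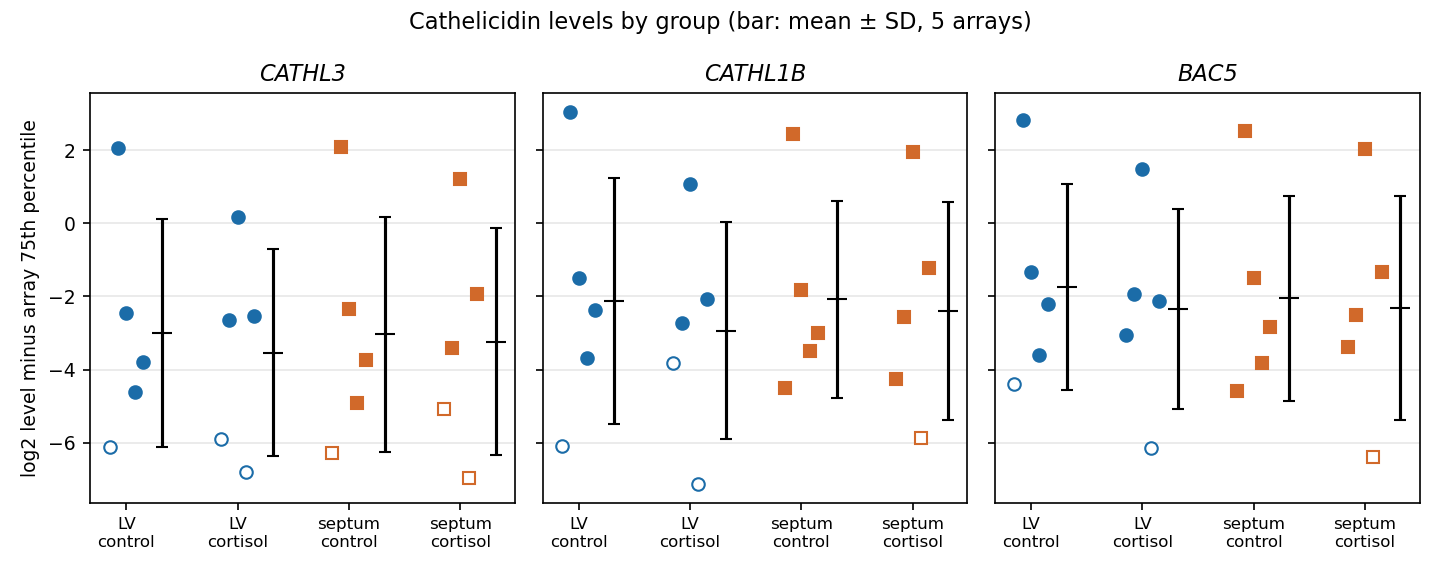
Levels of the 3 genes by group (log2 intensity minus the array's 75th percentile), with 5 arrays per group and the mean ± SD beside them; open symbols were not well above background. The cortisol groups lie within about the same range as the control groups in both regions.

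In limma, cortisol minus control in LV was -0.55 ± 1.59 (log2, SE) for CATHL3, -0.82 ± 1.69 for CATHL1B and -0.61 ± 1.48 for BAC5, with adjusted p of 0.963, 0.950 and 0.957. The 95% confidence intervals ran from -4.04 to 2.94, from -4.54 to 2.90 and from -3.86 to 2.65, so large differences either way were not excluded by these 5 lambs per group. None of the 3 genes passed, against 0% of all 9791 probes tested (limma, 0 calls, 508 at an unadjusted p under 0.05). In septum the differences were -0.20 ± 1.70, -0.31 ± 1.54 and -0.27 ± 1.59 (limma adjusted p 0.980, 0.963 and 0.970), with 0% of 10369 probes called and 385 at an unadjusted p under 0.05. Averaged over both regions of each lamb they were -0.37 ± 1.63, -0.57 ± 1.60 and -0.44 ± 1.52 (0% of 10069 probes called, 526 unadjusted). The sign of the cortisol differences rested on single lambs. Each of the 3 genes turned without control 2 and without cortisol 4 in both regions, and CATHL3 turned in both regions, with CATHL1B in septum, without cortisol 1. Cortisol 4 was not well above background for any of the 3 genes in either region. Without control 2 the differences ran from 0.47 to 0.71 in LV and from 0.81 to 1.08 in septum, none called by limma. With slide as a block in LV they were 0.26, 0.24 and 0.28 for CATHL3, CATHL1B and BAC5. Cortisol 4 was alone on slide 4, so the slide block takes its LV array out of the comparison. Simply leaving out cortisol 4 gave 0.27, 0.23 and 0.34 in LV, so the slide block is not a separate check.

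Septum minus LV was 0.13 ± 1.26 for CATHL3, 0.29 ± 1.23 for CATHL1B and -0.14 ± 1.17 for BAC5 (limma, SE, no gene called, against 0.397% of 10069 probes). With the lamb as a block, the standard errors fell to 0.15, 0.22 and 0.13 and the 95% intervals to -0.21 to 0.47, -0.21 to 0.79 and -0.42 to 0.14. The adjusted p-values in limma were then 0.584, 0.383 and 0.471, while 18.3% of all probes were called. Septum was higher in 6, 6 and 2 of 10 lambs. The second probes of CATHL1B and BAC5 had septum minus LV of 0.01 and 0.03, with septum higher in 3 of 10 lambs for each. The sign for BAC5 thus differed between its 2 probes. Region and slide were largely confounded. On slide 2 alone, which held both regions, septum minus LV was -0.92 for CATHL3, -0.98 for CATHL1B and -1.07 for BAC5. The lambs of the 2 regions were not the same there. The septum arrays of slide 2 included that of cortisol 4, the lowest lamb, whose LV array was on slide 4. These values therefore do not separate region from lamb. The cortisol effect in septum minus that in LV was 0.35 ± 0.31, 0.51 ± 0.45 and 0.33 ± 0.25 with the lamb as a block, with 95% intervals of -0.33 to 1.03, -0.49 to 1.50 and -0.23 to 0.89. None was called by limma, nor was any of 10069 probes (0%, with 357 at an unadjusted p under 0.05).

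Marker genes of blood and heart cells were read in the same lambs, for lists drawn up with earlier results of these data known. A list's level is the mean over its genes of the log2 level minus that gene's mean, for genes well above background on at least 10 arrays, and r is over the 10 lambs and given as a description. The neutrophil and granulocyte list had the highest r with the mean of the 3 cathelicidins, 0.78, from 7 genes so detected of 14 on the array. These were ITGB2, CHI3L1, LYZ, CXCL8, IL1B, TLR2 and TLR4, so LTF did not enter. The list mean is not scaled by gene. The lamb means of CXCL8 spanned 6.95, against at most 2.52 (TLR2) for the others, so CXCL8 weighed most. The red cell list had 0.64 from only 2 genes, HBB and EPOR, and the endothelial list 0.58 from 5 genes. The T and NK cell list had 0.18 from 3 genes and the monocyte and macrophage list 0.09 from 4. The heart muscle list had -0.04 from 3 genes and the fibroblast list -0.11 from 4. Without control 2 these values were 0.67 for the neutrophil list, 0.59 for red cell, 0.61 for endothelial, 0.13 for T and NK cell, -0.15 for monocyte and macrophage, 0.52 for heart muscle and 0.085 for fibroblast genes. The differences between lists were not tested. The B cell list held only CR2, a complement receptor, and the platelet list only SELP, an adhesion receptor, well above background on 7 and 3 arrays. In control 2 and cortisol 3 the neutrophil list stood at 0.86 and 0.82, in a range over lambs of -0.70 to 0.86. In cortisol 3 CXCL8 was at 1.6, against its mean of -2.6 over the arrays. ITGB2 (-2.17) and TLR4 (-6.13) lay below their means of -2.01 and -4.89 in that lamb, and the other list genes above theirs. The part of any cell type in the levels of the cathelicidins was not tested.

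**Figure D4:**
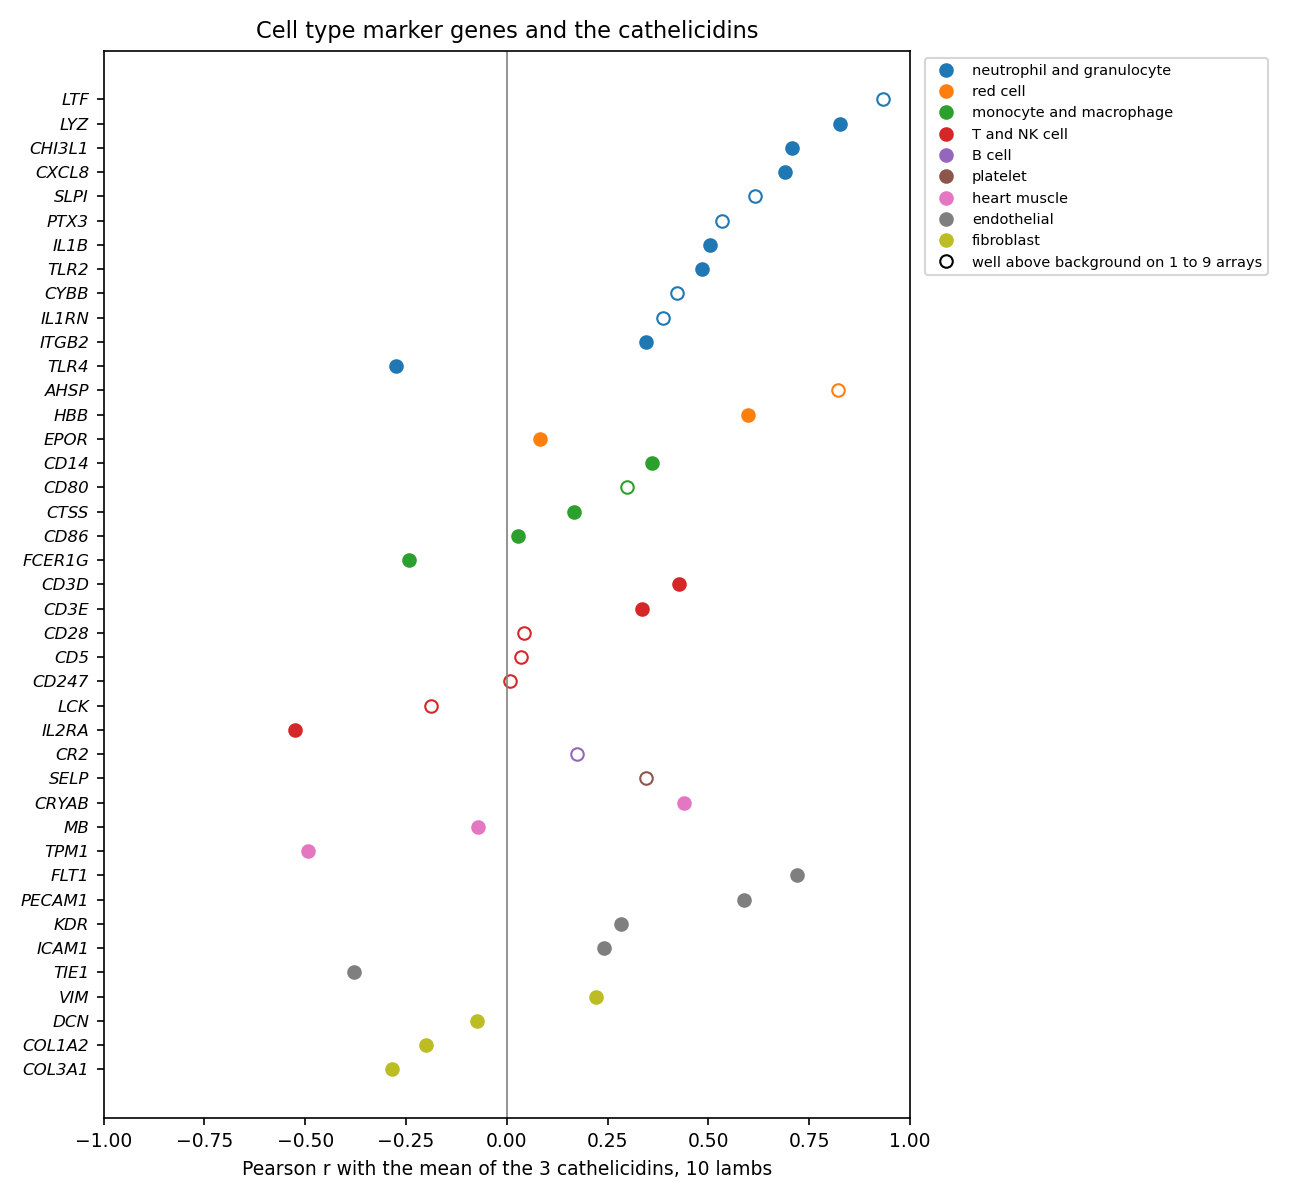
Pearson's r (x axis) of each marker gene's lamb mean with the mean of the 3 cathelicidins over 10 lambs, for genes well above background on at least 1 array, coloured by cell type list; open symbols were so on fewer than 10 arrays. LTF and LYZ of the neutrophil list lie highest at 0.93 and 0.83.

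The r of single genes of the neutrophil list ran from -0.27 to 0.93. LTF, which encodes lactoferrin of the secondary granules, had an r of 0.93 and was well above background on both arrays in control 2 and cortisol 3 alone. LYZ, lysozyme, had 0.83, with lamb means of -4.77 to -3.17. CHI3L1, a chitinase-like protein, had 0.71 although its own LV and septum levels had an r of only -0.03. CXCL8, a chemokine that draws neutrophils, had 0.69 and was highest in cortisol 3 (1.63) and not in control 2 (-1.21). The inflammatory cytokine IL1B had 0.50. The protease inhibitor SLPI had 0.61, the pattern recognition protein PTX3 0.53, the oxidase subunit CYBB 0.42 and the interleukin antagonist IL1RN 0.39. These last genes were well above background on only 4, 6, 9 and 2 of 20 arrays, so most of their values were at background. The receptor TLR2 had 0.48 and TLR4 had -0.27. ITGB2, the beta chain of the leukocyte integrins, was well above background on all 20 arrays and had 0.35, with control 2 highest (-0.84) and cortisol 3 at -2.17. ITGAM, an integrin alpha chain, and MMP9, a granule protease, were not well above background on any array. Only 14 of the list's 43 genes could be found by name on the array, and MPO, ELANE and CSF3R were not among them.

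Among red cell genes, HBB, the beta globin, had an r of 0.60, and its lamb means ran from 2.88 to 5.52. Control 2 (5.52) and cortisol 3 (5.26) were the 2 highest lambs for HBB as well, but cortisol 4, lowest for the cathelicidins, was next at 4.52. AHSP, the alpha globin chaperone, was named after its values were seen. It had 0.82 and was well above background on both arrays in control 2 (-1.67) and cortisol 3 (-1.06) alone. The erythropoietin receptor EPOR had 0.08, and CA1, the red cell carbonic anhydrase, was not well above background on any array. The macrophage genes CTSS, a lysosomal protease, and FCER1G, an Fc receptor subunit, had 0.17 and -0.24 and the T cell receptor genes CD3E and CD3D had 0.33 and 0.43. Of the tissue markers, the endothelial PECAM1 and KDR had 0.59 and 0.28, and the fibroblast VIM and DCN had 0.22 and -0.07. The heart muscle genes CRYAB and MB had 0.44 and -0.07. Other members of these lists, chosen after their values were seen, went the other way or further: the interleukin receptor chain IL2RA had -0.53, the T cell kinase LCK -0.19, the endothelial receptors TIE1 -0.38 and FLT1 0.72, and the heart muscle tropomyosin TPM1 -0.49.

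**Figure D5:**
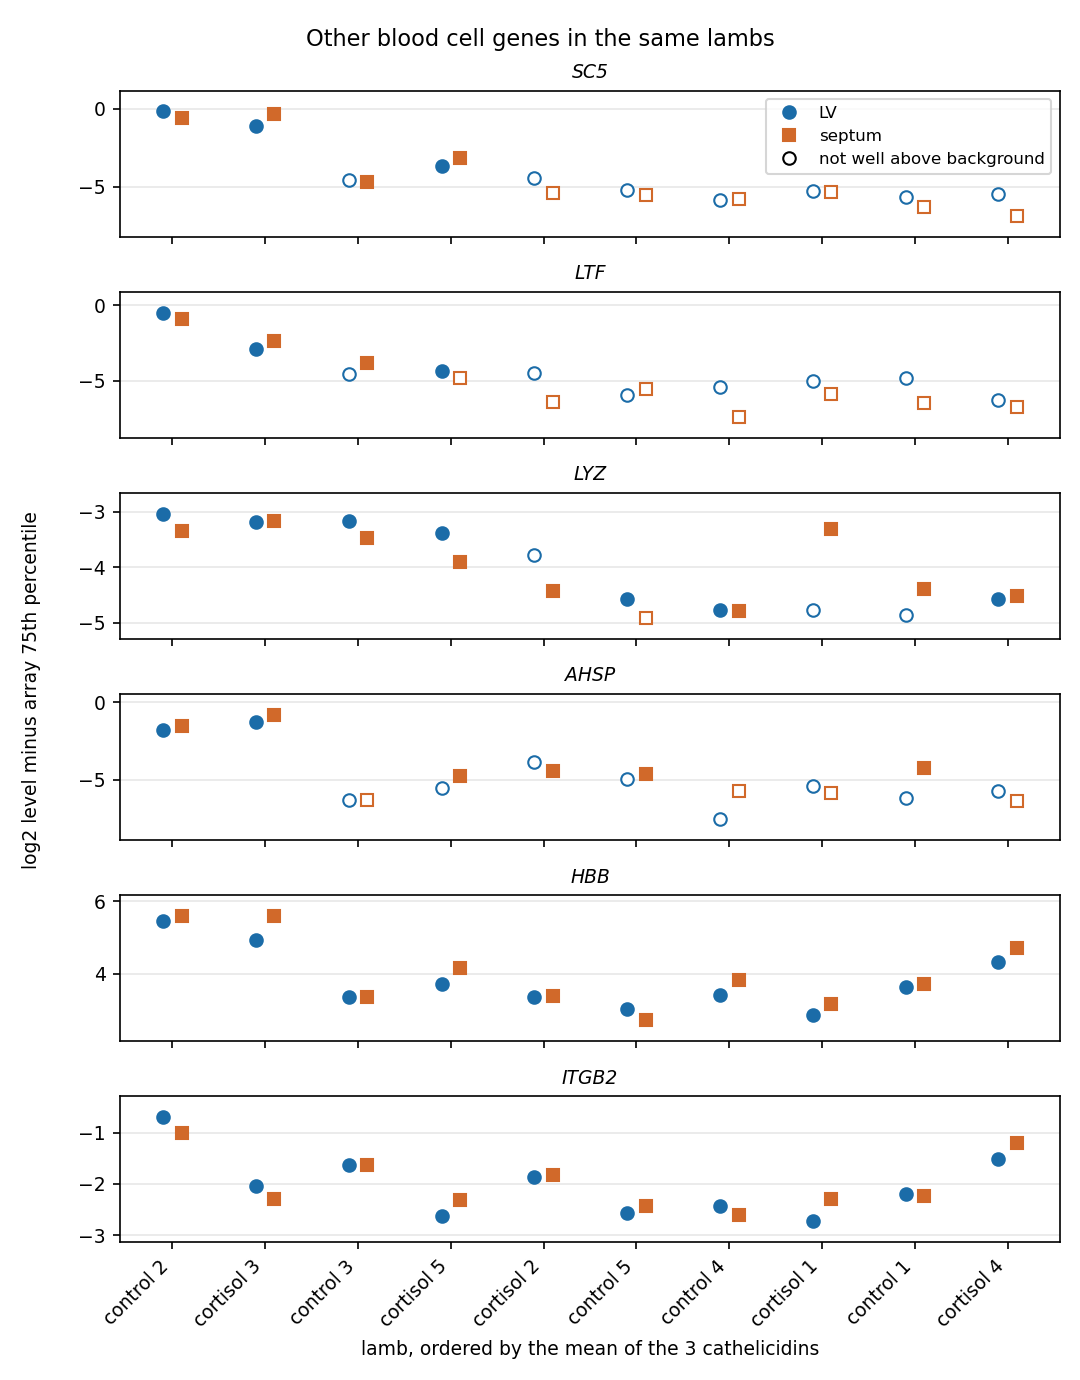
Levels of SC5, LTF, LYZ, AHSP, HBB and ITGB2 (y axes, each with its own range, log2 intensity minus the array's 75th percentile) in LV (circles) and septum (squares), with lambs in the order of the cathelicidin mean; open symbols were not well above background. SC5, LTF, AHSP and HBB are highest in control 2 and cortisol 3, whereas ITGB2 is high in control 2 and not in cortisol 3.

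Among the 513 named genes with a probe well above background on at least 10 of 20 arrays, which leaves out LTF (0.93) and AHSP (0.82), the 8 with the pattern most like the cathelicidin mean were CTSF, a lysosomal protease (r = 0.90), CCN1, a matrix-associated protein (0.88), HIF3A, a hypoxia-inducible factor subunit (0.86), WT1, a transcription factor (0.85), CDKN1B, a cyclin-dependent kinase inhibitor (0.84), LYZ (0.83), GGTA1, a galactosyltransferase (0.82), and ZFP36, an mRNA decay factor (0.82). The 4 most opposed were YEATS4, a chromatin reader (-0.92), AQP4, a water channel (-0.84), PHF14, a chromatin protein (-0.81), and INHA, the inhibin alpha subunit (-0.79). Without control 2 and cortisol 3 the r of CCN1 was 0.53 and that of HIF3A 0.85. The lamb means of CTSF had an SD of only 0.31, against 2.70 to 2.89 for the 3 cathelicidins. Over the 9924 probes other than those of the cathelicidins the median r was -0.04 with quartiles of -0.35 and 0.26, and 10 probes lay above 0.9 and 10 below -0.9.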

How the data were processed

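Total RNA (100 ng) was labelled with Cy3, per the labels' protocols. The authors deposited scanner files of Agilent Feature Extraction 10.1.1.1, whose processed spot intensity is background-subtracted and detrended but not normalized between arrays, per the file headers. The deposited table of log2 values was normalized separately by region (column medians 6.71 to 6.72 in LV and 9.49 to 9.54 in septum), with its method not stated; it held the 3 genes in LV alone, where they correlated at 0.956 to 0.984 with the scanner values, and served as an alternative for the cortisol comparisons. The submitters' processing notes also name limma.

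From log2 of processed intensity, log2 of that array's 75th percentile (99.2 to 441 intensity units) was subtracted, with 2 to 68 outlier spots per array left out; for marker genes with no other spot the outlier was kept. Names were found for 1356 of 15008 probes (9.04%) through the RefSeq table. Tests used limma 3.58.1 in R 4.3.3, two-sided, over probes well above background on at least 5 of 10 arrays of a region or 10 of 20, with Benjamini-Hochberg adjusted p under 0.05; the fit was tested on simulated data. Correlations used Python 3.11.15 and scipy 1.17.1 with 100000 permutations. P-values of the cortisol differences within a region or averaged over regions measure the spread between these lambs. With the lamb as a block, those of the region comparisons measure the spread of septum minus LV over the lambs. Without that block, the 2 arrays of a lamb were treated as independent.

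The labels do not state that the same number is 1 lamb in both regions; residual profiles had r of 0.438 to 0.810 with their own partner, the highest in 10 of 10 lambs, and the lamb was used as a block on that basis. The 3 genes and the 9 marker lists were chosen with earlier results of these data known. By rule, named genes were the cathelicidins, every measured neutrophil gene, the 2 brightest of each other list, HBB, and the 8 named genes most like and 4 least like the cathelicidin mean. Others, among them AHSP, CA1, IL2RA, LCK, TIE1, FLT1, TPM1, ISG15 and FABP4, were named outside this rule. Alternatives were the deposited table, normexp background, quantile scaling, the detection filter, outlier spots, slide or replicate number as a block, slides alone, and leaving out lambs. The term fetuses of the other series that the design text mentions were not analysed here.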

Additional observations from a re-analysis of the deposited data

How the results depend on the processing

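The agreement of LV and septum kept its direction and its side of the threshold under all 51 alternatives (r 0.80 to 0.99), as did the coherence of the 3 genes under all 102 (r 0.90 to 1.00); the genes were chosen for their spread over these arrays, so this is a description and not independent support. With normexp background the ranges were 4.59 and 4.50 for CATHL3 in LV and septum, 5.58 and 4.54 for CATHL1B, and 5.14 and 4.75 for BAC5. The normexp values start from mean spot signal and local background, not the processed intensity, and add an offset of 50. The part of each in the narrower ranges was not tested. No alternative called a gene between the treatments (limma adjusted p 0.795 to 1.00) or regions. For CATHL3, CATHL1B and BAC5 the cortisol difference in LV was 0.26, 0.24 and 0.28 with slide as a block and 0.11, 0.42 and 0.56 on slide 3 alone, and CATHL3 was at 0.60 on slide 2 alone. In septum it was 0.61, 0.23 and 0.68 on slide 1 alone. Averaged over regions with slide as a block it was 0.51, 0.38 and 0.50. Leaving out 1 lamb gave ranges of -1.48 to 0.71, -1.82 to 0.47 and -1.57 to 0.54 in LV, -1.31 to 1.08, -1.40 to 0.81 and -1.36 to 0.87 in septum, and -1.39 to 0.89, -1.61 to 0.64 and -1.46 to 0.70 averaged; leaving out control 2 or cortisol 4 turned the sign for every gene in each of these, and leaving out cortisol 1 turned CATHL3 (0.039 in LV, 0.26 in septum, 0.15 averaged) and CATHL1B in septum (0.15). The deposited table gave -0.40, -0.74 and -0.28 in LV. Septum minus LV turned for BAC5 with normexp (0.21), for CATHL3 and CATHL1B with slide as a block (-0.86 and -1.04) and on slide 2 alone (-0.92 and -0.98). The second probe of BAC5 also had the other sign (0.03). The cortisol effect in septum minus that in LV was -0.46, -0.56 and -0.56 with slide as a block. Slide 4 held only the LV array of cortisol 4, so a slide block takes that array, and in the averaged fit that lamb, out of the comparison. Slide 2 held the septum array of cortisol 4 without its LV array. Other causes were not tested.

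Against 40 probes called for septum against LV, 1846 were called with the lamb as replicate block, 63 with quantile scaling, 99 with no filter, 79 with detection on all arrays, 1 with normexp, 0 with slide as a block, 0 on slide 2 alone and 2 to 289 without 1 lamb. The lamb as replicate block left every gene's difference and the call as it was. Control and cortisol lambs of 1 number had residual r of 0.068 to 0.29 in LV and 0.048 to 0.27 in septum, over 0.1 in 3 of 5 and the highest with their own number in 3 of 5 in each region, so the number was not taken as a pairing. The replicate block on that number changed no call for the 3 genes. Without control 2 the marker list r was -0.15 for monocyte and macrophage, 0.52 for heart muscle and 0.085 for fibroblast genes, against 0.67 for the neutrophil, 0.61 for the endothelial and 0.59 for the red cell list. A filter for detection on all arrays removed the 3 genes.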
